A study of Mus musculus with 15 samples.

Results

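A total of 2747 windows of the mouse genome were marked by H3K4Me1 in uninduced pre-B cells and stayed low in H3K27Ac from 0 to 48 h after C/EBPα was switched on. They were chosen by measured values. Build mm9, chromosomes 1 to 19 and X, was divided into windows of 3 kb starting at position 0, and each window was given a level F for each library, its number of distinct tag positions over the mean of that library. A window was kept when H3K4Me1 F was at least 4 at 0 h and H3K27Ac F was under 1.5 at all 5 times. The 2747 windows were 0.330% of the 832530 windows with a tag in any library and 5.97% (exact binomial 95% interval 5.75 to 6.19) of the 46049 windows rich in H3K4Me1 at 0 h.

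The data were ChIP-seq libraries of C10 cells, a clonal derivative of HAFTL, a mouse pre-B line, that carries an estradiol-inducible C/EBPα fused to the estrogen receptor (C/EBPαER). Induction with β-estradiol (100 nM as the labels give it, while the study's methods give another unit) together with IL-3 and CSF-1 turns the cells macrophage-like. Chromatin was taken at 0, 3, 12, 24 and 48 h post-induction (hpi) for H3K4Me1, H3K27Ac and H3K27Me3, giving 15 libraries with 1 library per mark and time, and the labels name ethanol as the solvent given to control cells. All groups therefore share the line and the transgene, and no library of an uninduced culture kept for the later times was analysed here. Because a mark and time had 1 library, no test across libraries was possible. Intervals on shares cover counting error over windows only, and the spread quoted for medians is the SD over the 20 chromosomes, which is not a replicate error.

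H3K4Me1 is laid down at enhancers, both those in use and those merely accessible, whereas H3K27Ac is added by P300 and its relative CBP at enhancers and promoters in use. H3K27Me3 is the product of Polycomb repressive complex activity and sits on the same lysine as H3K27Ac, so a single histone tail cannot carry both. Regions with H3K4Me1 and without H3K27Ac are commonly called primed, and those that carry H3K27Me3 as well are called poised.

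The libraries held 10.91 to 17.51 M distinct positions for H3K4Me1, 15.22 to 17.53 M for H3K27Ac and 15.34 to 31.54 M for H3K27Me3. A window held 13.1 to 21.0 tags on average for H3K4Me1, 18.3 to 21.1 for H3K27Ac and 18.4 to 37.9 for H3K27Me3, so that the rule asked for at least 69 H3K4Me1 tags at 0 h and allowed at most 27 to 31 H3K27Ac tags, depending on the time. The labelled cell types were checked on H3K27Ac at gene starts. The pre-B genes Cd79a, Pax5, Ebf1, Vpreb1 and Igll1 were lower at 48 hpi than at 0 h, by log2 changes from -1.02 to -1.98, and the macrophage genes Cd14, Il1b, Csf1r, Itgam, Lyz2 and Ctsd were higher, by 1.70 to 5.18.

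The chosen windows are illustrated by the 300 bp that held the most H3K4Me1 tags at 0 h in 3 of them, read from the plus strand of mm9 with every CpG in capitals. They are shown for their levels at 0 h: high H3K4Me1 with high H3K27Me3 (Dab2ip), high H3K4Me1 with low H3K27Me3 (Lifr) and the highest H3K27Me3 (upstream of Cbx8). None of the 3 stretches overlapped an annotated exon, and they held 3, 7 and 2 CpG, in that order. The search stayed inside each window, and the stretch upstream of Cbx8 begins at the edge of its window, so a higher stretch may lie beyond it.
Dab2ip intron, chr2:35449144-35449443: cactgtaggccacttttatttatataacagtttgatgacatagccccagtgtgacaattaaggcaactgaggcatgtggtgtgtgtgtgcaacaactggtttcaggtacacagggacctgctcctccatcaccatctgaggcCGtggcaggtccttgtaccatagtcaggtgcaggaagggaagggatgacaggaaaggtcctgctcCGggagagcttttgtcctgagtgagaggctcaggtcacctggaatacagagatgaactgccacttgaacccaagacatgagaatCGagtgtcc
Lifr intron, chr15:7102438-7102737: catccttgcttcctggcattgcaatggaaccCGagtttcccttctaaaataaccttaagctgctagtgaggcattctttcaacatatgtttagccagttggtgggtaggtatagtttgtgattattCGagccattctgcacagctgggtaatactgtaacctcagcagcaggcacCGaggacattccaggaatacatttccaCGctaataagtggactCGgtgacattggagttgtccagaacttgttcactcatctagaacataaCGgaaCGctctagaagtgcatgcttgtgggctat
Upstream of Cbx8, chr11:118911001-118911300: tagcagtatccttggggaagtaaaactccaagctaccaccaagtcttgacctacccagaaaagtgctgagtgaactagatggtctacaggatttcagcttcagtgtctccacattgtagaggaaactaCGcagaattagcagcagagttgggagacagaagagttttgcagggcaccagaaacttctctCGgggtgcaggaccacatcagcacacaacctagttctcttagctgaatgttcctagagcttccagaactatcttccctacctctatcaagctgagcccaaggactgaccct

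The label "never acetylated" has to be read as a limit and not as an absence. Median H3K27Ac F over the 2747 windows was 0.930, 0.712, 0.611, 0.427 and 0.711 from the first to the last time, against medians of 0.219, 0.332, 0.255, 0.142 and 0.203 over all windows. Thus 98% of the chosen windows lay above the median of all windows at 0 h and 94.2% at 48 hpi. The highest of the 5 values was under 1 in 1087 windows, from 1 to 1.2 in 545 and from 1.2 to 1.5 in 1115, and a further 1094 H3K4Me1-rich windows peaked just above the limit, between 1.5 and 1.8. In 965 of the chosen windows the upper exact Poisson limit of F also stayed under 1.5 at all 5 times. A narrow peak can escape a 3 kb average, and 190 of the windows held a 500 bp bin with at least 4-fold H3K27Ac at some time, 105 of them at 0 h. On the H3K4Me1 side 833 windows had F under 4.5. The member nearest the limit (69 tags, F 4.05) lay 129 kb upstream of Hapln1, and the nearest window outside it (68 tags, F 3.99) lay in an intron of Creg2. For H3K27Ac the nearest values were 1.48, upstream of Tnk2, and 1.52, in an intron of Ehmt1.

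Most of the windows stood alone. They fell into 2521 runs of adjacent windows, of which 2325 were single windows, 168 were pairs, 26 held 3 windows and 2 held 4. They were found on all 20 chromosomes, from 27 on chromosome X to 278 on chromosome 11, and made up between 4.29% (chromosome 13) and 7.38% (chromosome 9) of the H3K4Me1-rich windows of a chromosome.

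The closest comparison was with windows that started out alike. A total of 5900 H3K4Me1-rich windows had H3K27Ac F under 1.5 at 0 h, and the 2747 chosen windows were 46.6% of these. The other 3153 reached 1.5 or more at a later time and are called raised windows here, and 782 of them reached an F of at least 4 at 48 hpi. A single later value at 1.5 was enough, so counting error can move a window near the limit between the sets. Over the raised windows H3K27Ac F at 48 hpi had a median of 2.33 and a lower quartile of 1.62. At 0 h both sets had a median H3K4Me1 F of 4.99, with quartiles of 4.40 and 6.04 in each, whereas median H3K27Ac F was 0.930 in the chosen windows and 1.15 in the raised ones. The 17010 H3K4Me1-rich windows with H3K27Ac F of at least 4 at all 5 times, called always acetylated, served as a second comparison.

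H3K27Me3, whose level the rule did not use, was higher than in the compared classes over the never-acetylated windows. At 0 h 1036 of them (37.7%, exact 95% interval 35.9 to 39.6) had H3K27Me3 F of at least 2, where 11.0% of all windows and 5.90% of H3K4Me1-rich windows did. Among raised windows the share was 17.4% (16.1 to 18.8). The rule did limit H3K27Ac, which shares its lysine with H3K27Me3, so these contrasts may not be independent of the rule. With H3K27Ac F under 1 the share in never-acetylated windows was 52.8%, and with H3K27Ac F under 2 it was 27.6%. The part of the H3K27Ac limit in the contrasts was not tested. Median H3K27Me3 F was 1.58 in the never-acetylated windows (SD over chromosomes 0.339), 0.765 in raised windows (0.131), 0.475 in always-acetylated windows and 0.792 over all windows. They supplied 1036 of the 2718 H3K4Me1-rich windows with H3K27Me3 F of at least 2.

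The difference held chromosome by chromosome. The median at 0 h was above that of the other H3K4Me1-rich windows on 20 of 20 chromosomes and ranged on the autosomes from 1.16 on chromosome 13 to 1.98 on chromosome 15. Chromosome X stood apart, with a median of 0.370 in its 27 members, 0.264 in its other H3K4Me1-rich windows and 0.317 over all its windows, and with none of the 27 reaching an F of 2. F is taken over the mean of all chromosomes together, so an F of 2 lies further above the level of X than of the autosomes. Why X was lower was not tested.

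**Figure D1:**
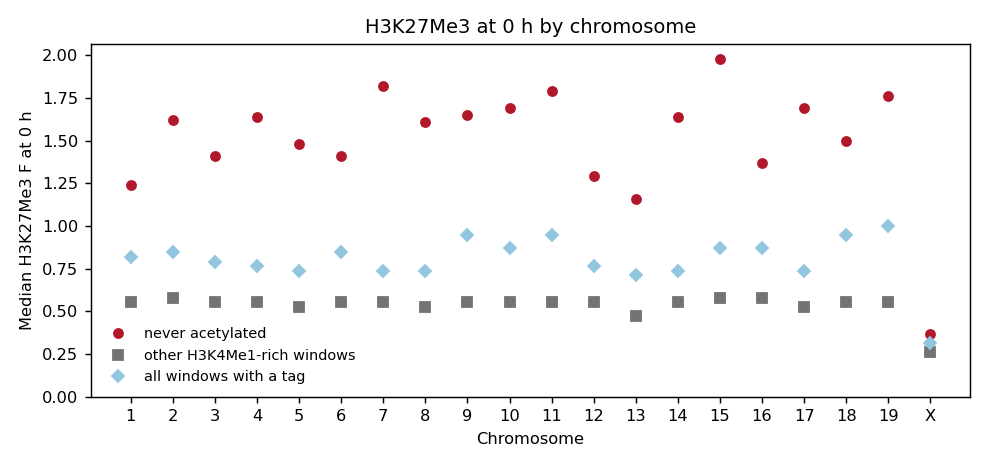
Median H3K27Me3 F at 0 h (vertical axis, fold over the library mean) on each chromosome for never-acetylated windows (red circles), other H3K4Me1-rich windows (grey squares) and all windows with a tag (light blue diamonds). The red circles lie above the other points on all 20 chromosomes, by least on X, where the median of the never-acetylated windows is 0.370.

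The share with H3K27Me3 rose with the level of H3K4Me1. It was 34.5% in never-acetylated windows with H3K4Me1 F from 4 to 6 at 0 h, 39.8% from 6 to 8 and 61.3% (exact 95% interval 54.8 to 67.4) at 8 and over. In raised windows it went from 15% through 21.4% to 31.6% over the same bands. Always-acetylated windows went the other way, from 2.28% to 0.617%. Within each band the never-acetylated windows were highest and the intervals of the 3 classes did not overlap.

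**Figure D2:**
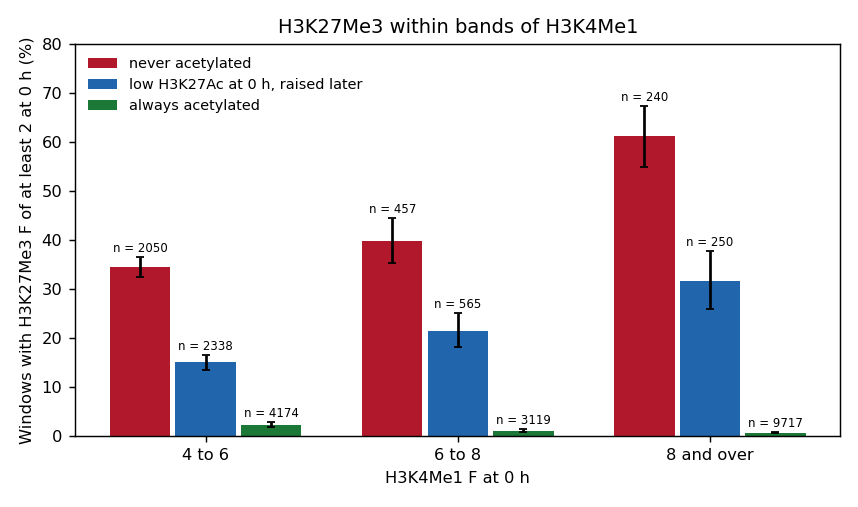
Share of windows with H3K27Me3 F of at least 2 at 0 h (vertical axis, percent) in 3 bands of H3K4Me1 F at 0 h (horizontal axis) for never-acetylated (red), raised (blue) and always-acetylated windows (green), with exact binomial 95% intervals. The red bars climb from 34.5% to 61.3% and stand above the others in every band.

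H3K27Me3 over these windows persisted through transdifferentiation. The median F was 1.58, 1.47, 1.59, 1.55 and 1.63 at 0, 3, 12, 24 and 48 hpi. From 0 to 48 hpi it changed by a log2 of 0.04, with an SD of the change over chromosomes of 0.10. At 48 hpi 1156 windows (42.1%) had F of at least 2, against 13.3% of all windows and 6.76% of H3K4Me1-rich windows. In 789 windows (28.7%) F was at least 2 at all 5 times, against 6.94% of all windows and 3.78% of H3K4Me1-rich ones. In 1342 (48.9%) it was at least 2 at any time, against 17.8% and 8.86%. Individual windows seldom moved: with 0.25 added to F, 30 (1.09%) were at least 2-fold lower at 48 hpi than at 0 h, where 1.75% of H3K4Me1-rich windows were, and 7 (0.255%) were at least 2-fold higher, where 0.497% were. Both shares were near those of the H3K4Me1-rich windows, so that rare 2-fold moves were not particular to the never-acetylated windows. Of the 1036 windows high at 0 h, 91.9% (exact 95% interval 90.1 to 93.5) were still at 2 or more at 48 hpi, against 79.1% of the other 1682 H3K4Me1-rich windows and 82.9% of all 91661 windows that were high at 0 h. Of the 550 raised windows high at 0 h, which started at a median of 2.75, 81.6% (78.1 to 84.8) were still at 2 or more. The never-acetylated ones started at a median of 2.82, against 2.56 in the other H3K4Me1-rich windows and 2.51 in all windows. The part of the starting level in these differences was not tested. In the never-acetylated windows high at 0 h the median went from 2.82 to 3.20, higher on 19 of the 19 chromosomes that held any. That rise was not seen against the windows with high H3K27Me3 at all 5 times, whose mean went from 2.89 to 3.29. In raised windows the median went from 0.765 to 0.706 and over all windows from 0.792 to 0.706. Scaled by background windows the 48 hpi medians were 1.84 in never-acetylated and 0.797 in raised windows, and scaled by windows high at all 5 times they were 1.43 and 0.620, so that the direction of these small changes depended on the scaling.

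H3K4Me1 declined over the same windows. The median F was 4.66, 3.25, 3.13 and 2.75 at 3, 12, 24 and 48 hpi. The 0 h value of 4.99 was used by the rule, so changes were taken from 3 hpi. From 3 to 48 hpi the median changed by a log2 of -0.76 (SD over chromosomes 0.09) and was lower on 20 of 20 chromosomes under this scaling. The part of the change seen by 12 hpi depended on the scaling, being -0.52 here, -0.16 scaled by background windows and -0.60 scaled by windows high at all 5 times. From 12 to 48 hpi the change was -0.24, -0.25 and 0.10 in the same order, so that a further fall after 12 hpi was not seen under the last of these. Between 3 and 48 hpi raised windows changed by 0.28 (0.10), always-acetylated windows by -0.47 (0.05) and all H3K4Me1-rich windows by -0.37 (0.08). The raised and never-acetylated windows were at 5.47 and 4.66 at 3 hpi and at 6.64 and 2.75 at 48 hpi.

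**Figure D3:**
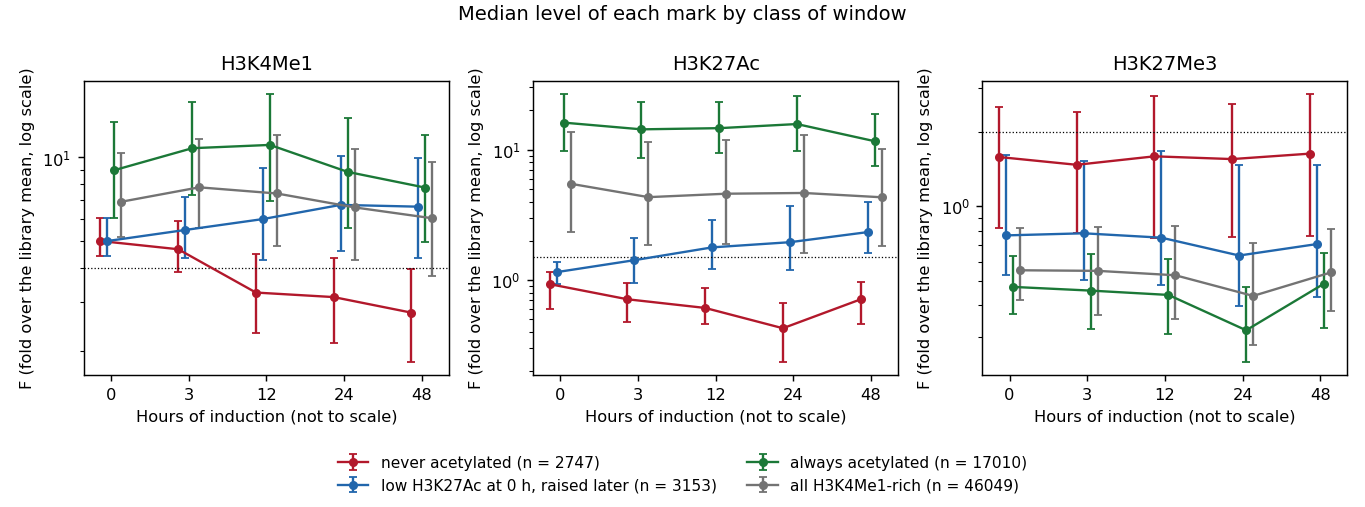
Median F of H3K4Me1, H3K27Ac and H3K27Me3 (3 panels, log scale) at the 5 times for never-acetylated, raised, always-acetylated and all H3K4Me1-rich windows, with bars from the lower to the upper quartile of windows and dotted lines at the limits of 4, 1.5 and 2. Never-acetylated windows (red) go from 4.66 at 3 hpi to 2.75 at 48 hpi in H3K4Me1 and raised windows (blue) from 5.47 to 6.64, and they are the highest class in H3K27Me3 at every time.

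By window, 2416 of the 2747 (88.0%) had less H3K4Me1 at 48 than at 3 hpi, against 74.2% of the other H3K4Me1-rich windows and 60.7% of all windows. At least 2-fold lower were 1013 (36.9%, exact 95% interval 35.1 to 38.7), against 21.9% of H3K4Me1-rich windows, and at least 2-fold higher were 10 (0.364%), against 3.74%. In raised windows these shares were 6.47% and 14.9%, and in always-acetylated windows 16.0% and 0.976%. At 48 hpi 673 windows (24.5%) still had an F of at least 4, against 72.2% of H3K4Me1-rich windows. At 4 or more at all 5 times were 449 (16.3%), against 66.2%, and under the library mean at 48 hpi were 152 (5.53%), against 1.04%. The fall was seen in each band of starting H3K4Me1, with log2 changes of -0.75, -0.94 and -1.03 in the bands 4 to 6, 6 to 8 and 8 and over. The other H3K4Me1-rich windows changed by -0.27, -0.39 and -0.53 in these bands and raised windows by 0.31, 0.07 and -0.14. The size of the change depended on the scaling. Scaled by windows that were background in all 5 H3K4Me1 libraries it was -0.41, with 22.6% of windows at least 2-fold lower and 58.2% still at 4 or more, and 1.57% were at least 2-fold higher, against 7.87% of H3K4Me1-rich windows. All H3K4Me1-rich windows were then at -0.02, 11.2% and 89.6%, and always-acetylated windows at -0.12. The order of the classes was the same under this scaling.

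The never-acetylated windows did not form a uniform set. The 1036 with H3K27Me3 F of at least 2 at 0 h were compared with the 884 with F under 1, a split made on H3K27Me3 alone. The former changed in H3K4Me1 by a log2 of -0.62 (SD over chromosomes 0.17) from 3 to 48 hpi and the latter by -0.85 (0.16), and 31.0% against 20.8% were still at 4 or more at 48 hpi, with intervals of 28.2 to 33.9 and 18.2 to 23.6. The former began higher, with H3K4Me1 medians at 3 hpi of 4.80 against 4.66 and upper quartiles of 6.28 against 5.56. The part of this in the difference was not tested. The 827 windows with H3K27Me3 F from 1 to 2 changed by -0.82 (0.18), and 20.3% were at 4 or more, close to the H3K27Me3-low windows. The H3K27Me3-high windows were more often within 2.5 kb of an annotated start (22.9% against 12.7%) and more often between genes (50.0% against 27.3%), whereas 68.0% of the H3K27Me3-low windows had their centre in an intron, against 44.0%. Of the 827 windows with F from 1 to 2, 14.6% were near a start, close to the H3K27Me3-low share. Between genes were 52.2% and in introns 44.3%, close to the H3K27Me3-high shares.

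The surroundings of the H3K27Me3-high and H3K27Me3-low windows differed too. The levels of H3K4Me1 at 0 h and of H3K27Ac inside the window were set by the rule, so they are given only as the reference for the flanks. Around H3K27Me3-high windows H3K4Me1 at 0 h was 6.16-fold over the library mean at the centre and 2.49-fold at 5 kb, on a broad domain of H3K27Me3 that was 3.10-fold at the centre and still 2.10-fold at 14 kb. Around H3K27Me3-low windows H3K4Me1 was 5.11-fold at the centre and 3.53-fold at 5 kb, and H3K27Ac was 1.01-fold and 3.07-fold at these places. An acetylated window, with H3K27Ac F of at least 4 at any time, lay within 9 kb of 63.7% of the H3K27Me3-low windows and of 33.1% of the H3K27Me3-high ones. By 48 hpi H3K4Me1 at the centre was 3.65-fold in H3K27Me3-high windows, against 1.75-fold at 5 kb. In H3K27Me3-low windows it was 2.79-fold against 2.73-fold, with 2.40-fold at 14 kb.

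**Figure D4:**
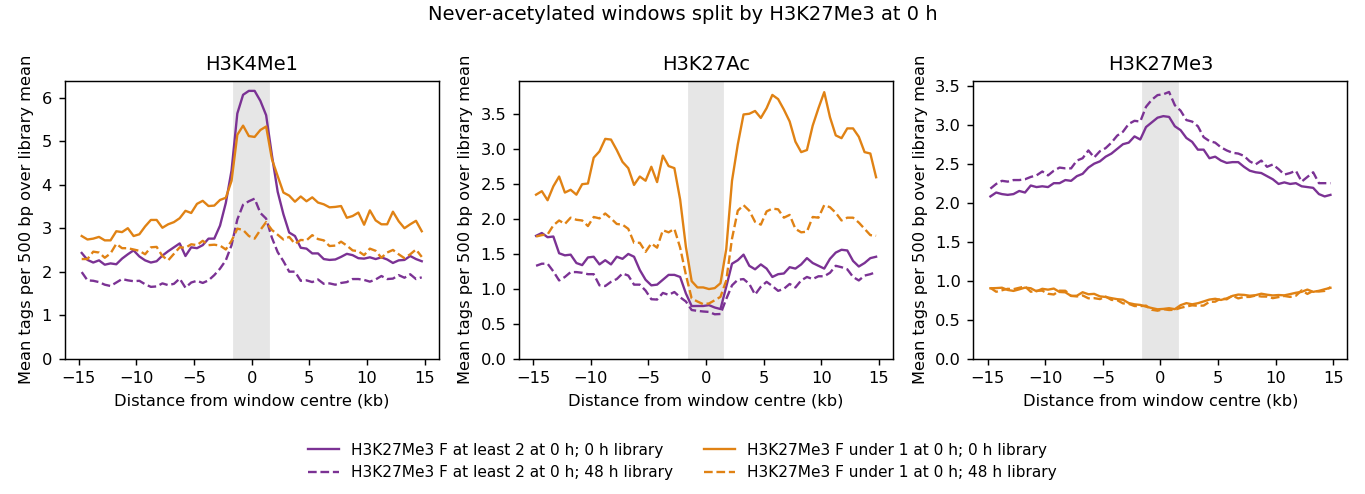
Mean tags per 500 bp over the library mean (vertical axis) within 15 kb of the window centre for the never-acetylated windows with H3K27Me3 F of at least 2 (purple, n = 1036) or under 1 (orange, n = 884) at 0 h, in the 0 h (solid) and 48 h (dashed) libraries, with the 3 kb window shaded. At 48 hpi the purple H3K4Me1 line stands at 3.65-fold at the centre and 1.75-fold at 5 kb, and the orange line at 2.79-fold and 2.73-fold. H3K4Me1 at 0 h and H3K27Ac inside the shading, and H3K27Me3 at 0 h, were set by the choice of windows.

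As a whole the never-acetylated windows were mostly distal. 470 (17.1%, exact 95% interval 15.7 to 18.6) were within 2.5 kb of an annotated start, against 26.9% of H3K4Me1-rich, 41.7% of always-acetylated, 18.1% of raised and 9.32% of all windows. Their centres lay in exons in 4.84%, in introns in 51.8% and between genes in 43.4%. An acetylated window was within 9 kb of 46.8% of them, against 77.4% of raised, 84.5% of all H3K4Me1-rich and 18.9% of all windows. Within 3 kb the share was 23.8%, against 56.6% of raised windows. These classes were split by H3K27Ac itself, whose signal can cross the edge of a window, and the part of this in the contrast was not tested.

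The sequence of the windows was described by base composition and by 7 short words, each searched on both strands. Median GC content was 46.6%, with 10.7 CpG per kb, against 46.1% and 11.0 in H3K4Me1-rich windows and 41.3% and 7.0 in all windows. At least 20 CpG per kb were found in 6.33%, against 4.63% of raised, 3.67% of all, 13.6% of H3K4Me1-rich and 27% of always-acetylated windows. The EBF1 word TCCCNNGGG was present in 48.2% of never-acetylated windows, 39.7% of H3K4Me1-rich windows, 38.2% of raised windows and 23.7% of all windows, and in 56.9% of the H3K27Me3-high and 37.8% of the H3K27Me3-low members. GC content moved with it, at 48.3% and 44.1% in those members, and its part in the difference was not tested. The AP-1 word TGANTCA was in 59.5% of members, 64.2% of raised windows, 72.4% of the raised windows that reached 4-fold H3K27Ac at 48 hpi and 60.0% of all windows. The C/EBP word TTGCNNCAA was in 21.9% of members, 23.5% of raised and 24.5% of all windows, and the PU.1 word GAGGAAGT in 21.1%, 21.4% and 16.7%. For E2A (CAGCTG) the share was 79.8% of members and 78.8% of H3K4Me1-rich windows, for RUNX (TGTGGTTT) 24.8% and 22.8%, and for CTCF (CAGGGGGC) 11.1% and 11.1%. Over all windows E2A, RUNX and CTCF words were in 64.6%, 22.8% and 5.93%. These are matches of letters and not occupied sites. The words for C/EBP, PU.1, EBF1, RUNX and CTCF were each searched together with their reverse complement, and those for E2A and AP-1 are their own.

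The strongest members were chosen by H3K4Me1 at 0 h. Joint first, with Rgs10, was a window in an intron of Dab2ip, which encodes a scaffold protein that restrains Ras signalling, at chr2:35448001-35451000 and 35.7 kb from the gene's start. It held 341, 346, 175, 108 and 64 H3K4Me1 tags at 0, 3, 12, 24 and 48 hpi (F 16.5, 8.88, 7.20 and 4.88 from 3 to 48 hpi), 19, 15, 2, 10 and 6 H3K27Ac tags and 143, 85, 84, 90 and 78 H3K27Me3 tags (F 3.77 at 0 h and 4.23 at 48 hpi). H3K4Me1 therefore fell by a log2 of 1.70 from 3 to 48 hpi in a window with steady H3K27Me3. Dab2ip held 6 members in all, each with H3K27Me3 F between 3.30 and 5.25 at 0 h, and 3 of them were adjacent, at chr2:35445001-35454000.

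A window in an intron of Rgs10, a regulator of G protein signalling, at chr7:135519001-135522000 held 341, 343, 243, 172 and 140 H3K4Me1 tags. Its H3K27Me3 F was 3.51 at 0 h and 5.21 at 48 hpi. In contrast, a window in an intron of Lifr, a subunit of the receptor for leukemia inhibitory factor, at chr15:7101001-7104000 had an H3K27Me3 F of 0.977 at 0 h and 1.68 at 48 hpi. It held 338, 331, 299, 231 and 192 H3K4Me1 tags, so that F was 15.7 at 3 and 14.6 at 48 hpi, the steadiest of the 5 strongest members. The fourth, at chr7:139671001-139674000, lay 95.6 kb from the start of Oat within a 3009 kb annotated model of Fgfr2, and held 312, 387, 241, 192 and 125 tags with H3K27Me3 F of 5.36 at 0 h and 6.73 at 48 hpi. The fifth, at the start of Tubb3, which encodes a neuronal β-tubulin, at chr8:125934001-125937000 held 304, 411, 398, 221 and 158 tags and had 31.3 CpG per kb. The highest H3K27Ac F over time was 1.04 at Dab2ip, 1.37 at Rgs10, 1.42 at Lifr, 1.33 at the fourth and 1.38 at Tubb3. From 3 to 48 hpi H3K4Me1 changed by a log2 of -1.70 at Dab2ip and -0.10 at Lifr. The medians of their sets were in the other order, at -0.62 in H3K27Me3-high and -0.85 in H3K27Me3-low members.

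The members with the most H3K27Me3 included windows beside Polycomb genes themselves. The highest was at chr11:118911001-118914000, 10.2 kb upstream of Cbx8, and the next at chr11:118881001-118884000, 1.77 kb upstream of Cbx2. Both genes encode chromobox proteins that bind H3K27Me3. The Cbx8 window held 258, 157, 221, 132 and 122 H3K27Me3 tags (F 6.81 at 0 h and 6.62 at 48 hpi) and 171, 180, 211, 187 and 110 H3K4Me1 tags. The Cbx2 window held 252, 146, 200, 134 and 115 H3K27Me3 tags and 106, 143, 117, 73 and 96 H3K4Me1 tags. The other members of this group were at chr15:102801001-102804000, 4.37 kb upstream of the homeobox gene Hoxc9, and at chr12:81837001-81840000, near Gm1568. From 3 to 48 hpi H3K4Me1 changed by a log2 of -0.46 in the Hoxc9 window and -0.91 in the Gm1568 window, and by -0.03 and 0.10 in the Cbx8 and Cbx2 windows.

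The largest losses of H3K4Me1 left almost no tags. Upstream of Slc43a1, an amino acid transporter gene, a window went from 151 tags at 3 hpi through 86 and 25 to 6 at 48 hpi (log2 -3.39). In an intron of Dlgap2, a postsynaptic scaffold gene, the window at chr8:14349001-14352000 went from 182 through 56 and 24 to 8 (-3.37). A window in Heyl, which encodes a Notch-responsive repressor, went from 73 to 3 (-2.96) and one upstream of Pkp1, which encodes the desmosomal protein plakophilin, from 62 to 3 (-2.74). Their H3K27Me3 F at 0 h ran from 0.950 at Slc43a1 to 2.61 at Pkp1.

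The largest rises were smaller. Near Man1c1, which encodes a Golgi mannosidase, the window at chr4:134286001-134289000 went from 65 tags at 3 hpi to 182, 208 and 135 (log2 1.66). Its H3K27Ac, which the rule kept low in every member, held 17, 18, 26, 26 and 22 tags from 0 to 48 hpi. Its H3K27Me3 F was 3.7 at 0 h and 4.61 at 48 hpi. Windows near Plxnb1 (1.47), Cdkn2aipnl (1.28) and Nudt14 (1.26) followed.

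**Figure D5:**
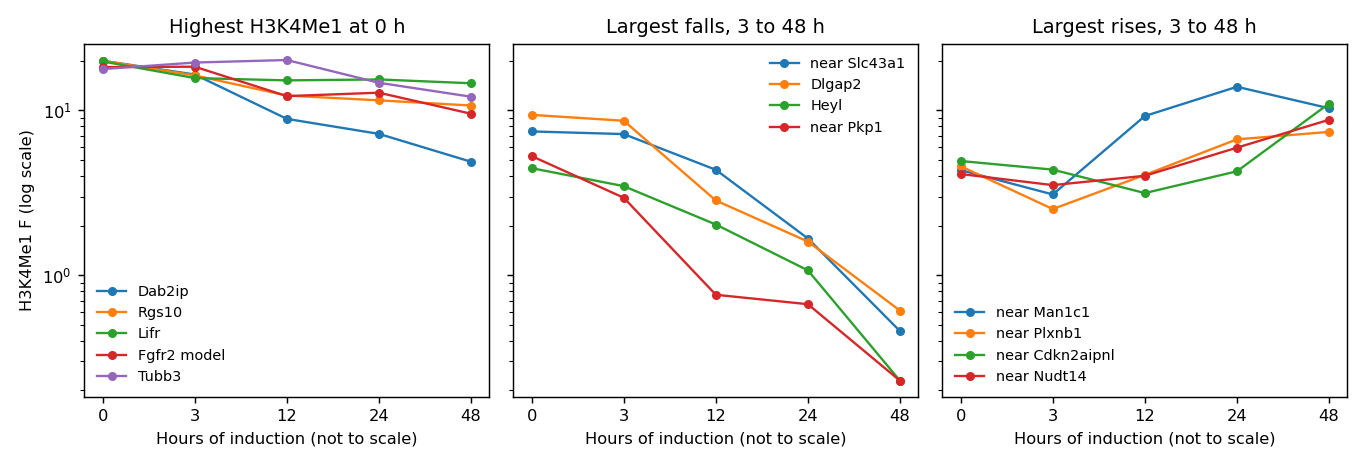
H3K4Me1 F (vertical axis, log scale) at the 5 times for single members: the 5 highest at 0 h, the 4 with the largest falls and the 4 with the largest rises from 3 to 48 hpi, each line a window of 1 library per time. Lifr stays between 14.6 and 19.8 while Dab2ip drops to 4.88, and the windows with the largest falls end under 1.

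The longest runs held 4 windows each. One spanned the start of Kcnmb4, a subunit gene of a calcium-activated potassium channel, at chr10:115908001-115920000, with H3K27Me3 F of 4.62, 3.48, 1.35 and 0.660 across its windows at 0 h. H3K4Me1 changed from 3 to 48 hpi by a log2 of -0.87, -0.94, -2.59 and -1.53 in the same order. The other lay across Kctd17 and Tmprss6 at chr15:78264001-78276000, with H3K27Me3 F of 2.45, 2.96, 3.88 and 2.72 and H3K4Me1 changes of 0.01, -0.82, -0.86 and -0.02. The smaller falls thus lay at the higher H3K27Me3 in the first run and at the lower in the second.

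Counting members within a gene or 10 kb to each side, 1847 of 22208 protein-coding genes (8.32%) held at least 1. Long genes led. Gm20388 with 20 and Fgfr2 with 16 are models of 4435 and 3009 kb that span other genes, so their members cannot be assigned to them. After these came Ntm with 8 members, Lgr6 with 8, Magi1 with 7, Arhgap22 with 7, Dab2ip with 6 and Phlpp1 with 6. Fam189a1 also held 6 and was placed after them for its fewer H3K4Me1-rich windows. Ntm encodes a neural adhesion protein, and none of its 8 members had H3K27Me3 F of 2 at 0 h, with H3K4Me1 F going from a median of 4.54 at 3 hpi to 2.02 at 48 hpi. In Arhgap22 6 of 7 were at 2 or more, as were 6 of 6 in Dab2ip, 3 of 7 in Magi1, a junction scaffold gene, and 2 of 8 in Lgr6, a receptor for R-spondins. The median H3K27Me3 F of members at 0 h was 2.51 in Arhgap22 and 0.713 in Lgr6. In Phlpp1, which encodes a phosphatase of Akt, 1 of 6 was at 2 or more.

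Gene lists were described by their counts, with a window near several genes of a list counted once. Among B lineage genes 4 of 24 held a member and members were 1.17% of the H3K4Me1-rich windows at these genes, and among myeloid genes 1 of 23 did, with 1.52%, against 5.49% over all protein-coding genes. Members were 8.08% of the H3K4Me1-rich windows at T lineage genes (3 of 24 genes), 6.20% at stem cell, erythroid and megakaryocyte genes (7 of 20), 13.6% at developmental transcription factors of other tissues (2 of 23), 12.3% at neuronal genes (3 of 20) and 5.26% at genes that every cell uses (2 of 20). The share of genes holding a member gave another order. It was 16.7% for B lineage genes and 35.0% for stem cell, erythroid and megakaryocyte genes, against 8.32% of all protein-coding genes. Only the myeloid list, at 4.35%, was below that value, and this was 1 gene of 23. Median gene length was 22.0 kb for B lineage, 10.8 kb for myeloid, 5.49 kb for developmental and 652 kb for neuronal genes, against 15.5 kb for all protein-coding genes. The part of gene length in these shares was not tested. B lineage genes were thus below all genes by window and above them by gene. An H3K4Me1-rich window was held by 100% of B lineage genes and 53.4% of all protein-coding genes, and its part in this was not tested. The counts behind the window shares were small, from 1 member at myeloid genes to 8 at T lineage, stem cell and neuronal genes.

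Rag2, which encodes a subunit of the V(D)J recombinase, held 2 of the 4 B lineage members. The window 9.37 kb upstream, at chr2:101454001-101457000, held 164, 208, 120, 71 and 58 H3K4Me1 tags with H3K27Me3 F of 2.43, and the one 8.63 kb downstream of the start, at chr2:101472001-101475000, held 81, 77, 28, 12 and 8 with H3K27Me3 F of 0.660. The single myeloid member, 9.68 kb from the start of Fcgr1, the gene of the high-affinity Fc receptor for IgG, held 93, 118, 147, 100 and 65 H3K4Me1 tags and 23, 14, 19, 27 and 10 H3K27Ac tags.

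At Neurog2, a neurogenic transcription factor gene, both H3K4Me1-rich windows were members, with H3K27Me3 F of 3.48 and 4.99 at 0 h and of 4.02 and 4.67 at 48 hpi. Dlg2, which encodes a synaptic scaffold, held 5 members far inside the gene, 1 of them with H3K27Me3 F of at least 2. Flt3, a receptor of early progenitors, held 2. The 3 members next to Tfrc, the transferrin receptor gene, were adjacent at chr16:32634001-32643000, had H3K27Me3 F of 0.660 to 0.924 at 0 h and fell in median H3K4Me1 F from 4.80 at 3 hpi to 1.75 at 48 hpi. The one at chr16:32634001-32637000 is the member upstream of Tnk2 given above, with H3K27Ac F of 1.48 at 12 hpi.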

How the data were processed

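Histone ChIP-seq of C10 cells was analysed for H3K4Me1, H3K27Ac and H3K27Me3 at 0, 3, 12, 24 and 48 hpi, grouped by mark and time from the labels, with 1 library each. The authors aligned reads to mm9, with Eland or Bowtie per the study's methods (which was used for which library is not given in the sources used here), and removed identical tags and tags without a unique alignment. The deposited files hold positions of 36 bp tags without strand, not counts. Because they differed in how many identical tags they kept, 1 tag per position was kept here.

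Tags were placed at their midpoint, 18 bp from the start, and counted in windows of 3 kb. F is the count over the mean of the windows with a tag in any library. Fold changes of single windows used F with 0.25 added. Annotation was GENCODE vM1 on NCBIM37 (mm9), and sequences and motif words were read from that genome. Distances are from window centres. Intervals are exact binomial (shares) or exact Poisson (tags), both covering counting error only. The code of the member rule was run on simulated counts with windows planted far from both limits, so this says nothing about windows near a limit. Python 3.11.15, NumPy 2.4.6, pandas 2.3.3, SciPy 1.17.1 and Matplotlib 3.10.9 were used.

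The windows and the gene lists were chosen with earlier results of these data known. Named were the 5 members with the most H3K4Me1 and the 4 with the most H3K27Me3 at 0 h, the 4 largest falls and 4 largest rises of H3K4Me1, 3 of the longest runs (ties taken by summed H3K4Me1), the members nearest each limit, the 8 protein-coding genes with most members and, of each list, genes with at least 3 members or else the gene with most. Some items that this rule names are not reported here. Alternatives tried were depth, identical tags, grid, window size, both limits, scaling, the added constant, distances, distal members and autosomes.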

Additional observations from a re-analysis of the deposited data

How the results depend on the processing

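With 1 library per mark and time, no replicate could be left out, and a difference between times may be one between libraries. No paired analysis was possible because the design holds a single library of each mark at each time. Of 123 values recomputed under 15 alternatives, 61 stayed within the counting interval, the chromosome SD or 1.5 times the main count, and 62 moved. With H3K27Ac F under 1 there were 1087 windows (2.36% of H3K4Me1-rich ones), H3K27Me3 F was at least 2 in 52.8% at 0 h and 55.9% at 48 hpi with a median of 2.09 at 0 h, H3K4Me1 changed by a log2 of -0.89 from 3 to 48 hpi with 43.9% at least 2-fold lower and 16.8% at 4 or more at 48 hpi, and 34.3% had an acetylated window near. With H3K27Ac under 2 the same values were 4777, 10.4%, 27.6%, 31.3%, 1.16, -0.65, 33.1%, 31.0% and 56.0%. With H3K4Me1 F of at least 3 there were 6309 windows (10.3%), with H3K27Me3 in 32.8% and 36.6%, a log2 change of -0.66, 30.8% lower and 0.697% higher, 15.9% at 4 or more, 15.7% near a start and 48.7% near an acetylated window. With at least 6 there were 697 (2.46%), with 47.2% and 53.1%, -0.95, 44.9% lower and 0% higher, 41.2% at 4 or more and 42.9% near an acetylated window. Windows of 2 kb gave 4808 members (7.05%), H3K27Me3 in 35.0% and 38.6%, 18.8% near a start and 50.7% near an acetylated window. Scaled by background windows, H3K27Me3 F was at least 2 at 48 hpi in 46.6%, and H3K4Me1 changed by -0.41, with 22.6% lower, 1.57% higher and 58.2% at 4 or more. Scaled by windows high at all 5 times these values were 36.1%, -0.51, 25.6%, 1.13% and 27.8%. Adding 1 to F left 25.8% lower, and shifting the grid by 1500 bp gave 0.146% higher and 22.5% at 4 or more. Tags as deposited gave 6.35% of H3K4Me1-rich windows. Distal windows alone were 6.76% of the distal H3K4Me1-rich ones, with H3K27Me3 in 35.1% and 39.6%. A start lay within 1 kb of 7.24%, and an acetylated window within 3 kb of 23.8%. Thinning the libraries and leaving out chromosome X moved none of the values.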
